A study of Homo sapiens with 12 samples.

Results

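The U87MG cells that shared medium with U373 cells were compared with U87MG cells grown alone. U87MG and U373 are established lines grown from human malignant gliomas (glioblastoma), both adherent and both cultured here in DMEM with serum. In the co-culture, U87MG cells lay at the bottom of a well and U373 cells sat in an insert whose membrane had pores of 0.4 µm, so that soluble factors could pass while the cells were kept apart. The cells were left to adhere for 3 h and then kept together for 72 h. The U87MG monoculture was plated at the bottom in the same way and also given 3 ml of medium, without U373 cells. No drug, transgene or knockdown was used in either group. Each group held 3 biological replicates, numbered 1 to 3, each measured on 1 Illumina HumanWG-6 array. In the co-culture both lines lived on the 3 ml of medium, and in the monoculture U87MG cells had it to themselves, so the presence of U373 cells and the greater cell load of the medium cannot be told apart.

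The genes described are those with a probe annotated to a single gene that was above the background limit on at least 3 of the 6 U87MG arrays. There were 9857 such genes, of 10644 tested on all 12 arrays of the series and 18665 with a single-gene probe. Of the 9857 genes, 9103 were above the limit on all 6 arrays, 27 were above it on all 3 co-culture arrays and on none of the monoculture arrays, and 0 the other way round. The limit was 4.646, 4.324 and 4.845 on the co-culture arrays and 4.692, 4.778 and 4.959 on the monoculture arrays. A gene at an equal level thus passed more easily in co-culture, and the 27 genes entered the set through the co-culture arrays alone. Their count is therefore no measure of genes switched on. All levels are given as log2 intensity, on the authors' variance-stabilized scale, a scale that flattens near background, so that differences of dim genes are understated. Values of 3 arrays are always given in the order of replicates 1, 2 and 3. With 3 arrays a group, the number of arrays limits the precision.

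Glioma cells exchange signals through secreted cytokines, prostaglandins, growth factors and proteases that remodel the matrix around them. Cytokines of the interleukin 1 and CXC chemokine families are controlled in many cells by the transcription factor NF-kB, and U87MG cells are known to secrete them in culture. Dense cultures use up oxygen and glucose, and cells answer low oxygen through hypoxia-inducible factors, which raise glucose transport and glycolysis. Metallothioneins, small cysteine-rich proteins that bind zinc and copper, answer to metal ions through the transcription factor MTF1.

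The 6 U87MG arrays resembled each other closely. Pearson's r across the tested genes was 0.9893 to 0.9919 among the co-culture arrays, 0.9903 to 0.9919 among the monoculture arrays and 0.9861 to 0.9940 between the groups, against 0.8023 to 0.8263 between U87MG and U373 arrays. Genes share the array and are not independent, so these values are descriptive. U87MG co-culture replicate 2 stood apart in its dim range: its background limit was 4.324, against 4.646 to 4.959 on the other 5 arrays, and 34.5% of its probes were above it, against 29.1% to 31.4%. The median difference over the 9857 genes was 0.185 between co-culture and monoculture arrays numbered 2, against 0.038 for those numbered 1 and -0.009 for those numbered 3.

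U87MG co-culture replicate 1 stood apart in another way, in genes that are abundant in U373 cells and at background in U87MG monoculture. There were 22 genes at background on the U87MG monoculture arrays and at least 16-fold over the limit on all U373 monoculture arrays. Of these, 6 were above background on co-culture replicate 1, 1 on replicate 2 and 0 on replicate 3. The median level of the 22 genes was 4.33, 3.64 and 3.70 on the co-culture arrays, 3.49, 3.68 and 3.53 on the monoculture arrays and 10.44 in U373 monoculture. CRYAB, a small heat shock protein, stood at 7.02, 4.59 and 3.87 in co-culture and at 4.29, 4.25 and 3.73 in monoculture, against 14.06 in U373 monoculture. Only replicate 1 stood out.

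The same array decided the values of the matrix genes BGN and MGP, which are singled out here after their values were seen. BGN, the small proteoglycan biglycan, read 9.07, 4.83 and 4.48 in co-culture and 4.49, 4.89 and 4.46 in monoculture, with 14.51 in U373 monoculture. Its difference of 1.51 was 0.04 without co-culture replicate 1. For MGP, matrix Gla protein, the levels were 6.62, 4.57 and 4.20 against 3.98, 4.60 and 4.0, and the difference went from 0.93 to 0.19 without that array. MGP stood at 13.04 in U373 monoculture. The part of U373 RNA in these readings was not tested.

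**Figure D1:**
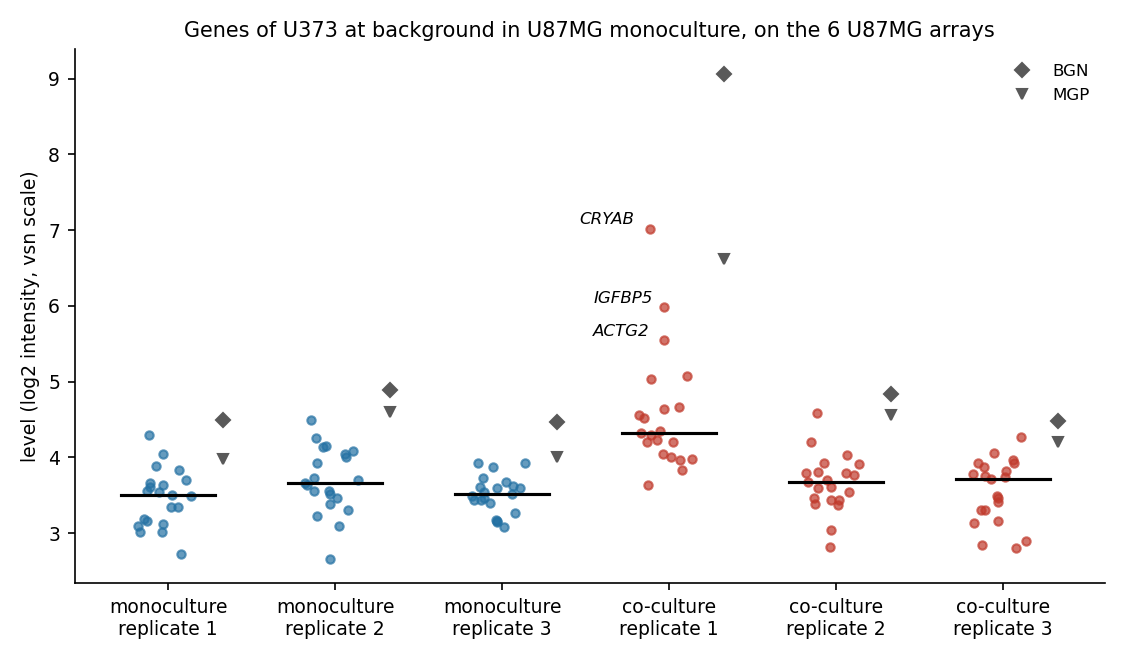
Levels (vertical axis, log2 intensity) of 21 of the 22 genes that were at background on the U87MG monoculture arrays and at least 16-fold over it in U373 monoculture, on each of the 6 U87MG arrays (points are genes, the black line is their median), with BGN and MGP beside them. Co-culture replicate 1 holds the raised values, with CRYAB at 7.02 and BGN at 9.07.

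Markers of cell types were read next. Of the mesenchymal markers of glioma lines, CHI3L1 was at background on all 6 arrays and FN1 was near it, at 4.28 in co-culture and 4.30 in monoculture. ANXA1 (annexin A1) averaged 13.65 in co-culture and 13.47 in monoculture, CD44 10.37 and 10.29, and NES (nestin) 8.47 and 8.61, and VIM (vimentin) was among the brightest genes of both groups. Of 6 astrocyte markers only SLC1A3, a glutamate transporter, was above background, and GFAP, S100B, AQP4, ALDH1L1 and SLC1A2 were at background on all 6 arrays. The summed level of the astrocyte list was 8.20 to 8.47 in co-culture and 7.78 to 7.92 in monoculture. The macrophage and microglia markers PTPRC, AIF1, CX3CR1, ITGAM and TYROBP were at background on every array. CSF1R was present at 8.92 in co-culture and 8.77 in monoculture. CD14, at 4.01 and 4.27, was above background on 2 arrays of each group. This list summed to 9.07 to 9.18 in co-culture and 8.86 to 9.10 in monoculture. Other lists were partly detected. The endothelial genes CDH5 and CLDN5, the neuron gene SYP and the oligodendrocyte genes MOG, MAG and MOBP were at background on every array. The endothelial genes TEK, at 7.19 in co-culture and 6.97 in monoculture, and PECAM1, at 5.60 and 5.37, were above it on all 6 arrays. VWF was above it on 1 co-culture array and KDR on 1 array of each group. The oligodendrocyte gene MBP was above it on 2 co-culture arrays and 0 monoculture arrays. Of the 4 neuron genes with a probe 3 were above it in both groups, SNAP25 at 8.21 and 8.18, SYT1 at 4.66 and 4.69 and STMN2 at 4.06 and 4.12. The endothelial list summed to 7.91 to 8.16 and 7.68 to 7.88, the neuron list to 8.16 to 8.68 and 8.33 to 8.58, and the oligodendrocyte list to 5.49 to 5.59 and 5.54 to 5.71, in co-culture and monoculture respectively.

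The first question was which genes of U87MG cells differ with co-culture. No gene did at the threshold set: 0 of 10644 tested genes (0%) had an adjusted p under 0.05 in limma's moderated test with Benjamini-Hochberg adjustment, and the smallest adjusted p was 0.151. At an unadjusted p under 0.05 there were 747 genes, 640 higher and 107 lower in co-culture. Among the 9857 genes above background these were 589 higher (5.98%) and 96 lower (0.974%). The excess of higher over lower genes moved with the scaling: after a further quantile normalization of the deposited values 391 were higher and 285 lower.

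The groups did not overlap, each co-culture array being above each monoculture array, for 1067 genes (10.8%), and the reverse held for 375 genes (3.80%). After quantile normalization these counts were 714 (7.24%) and 806 (8.18%). In 2269 of the 9857 genes co-culture was higher in all 3 same-numbered pairs and in 1086 it was lower in all 3. These counts follow the scaling of the arrays too. Of all 9857 genes 55.1%, 72.5% and 48% were higher in pairs 1, 2 and 3, and pairs were not counted after quantile normalization. The median difference over the 9857 genes was 0.070, and 5% of the genes lay below -0.24 and 5% above 0.42. The median SE of a difference was 0.169, so that a typical 95% confidence interval reached 0.36 to either side. For 9584 of the genes (97.2%) the interval lay wholly within a 2-fold change in either direction.

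Other ways of testing called a few genes. In a fit of the 6 U87MG arrays alone FGD3 (adjusted p = 0.00784), GPR84 (0.0453) and MSC (0.0453) passed. With the replicate number as a block in that fit they passed again, at 0.00247, 0.00247 and 0.0234, together with IL1A at 0.00651. With the block in the fit of all 12 arrays 0 genes passed, the smallest adjusted p being 0.0528, for GPR84. Array weights gave GPR84 and MSC, both at 0.047. A rank product over the pairs called 7 genes: FGD3 (0.000537), GPR84 (0.000709), IL1A and PTGS2 (both 0.0038), RGS2 and YWHAE (both 0.0453) and CEP85 (0.0483). GPR84 was thus called in 4 of these fits, and FGD3 and MSC in 3. YWHAE, a 14-3-3 protein, had a difference of -0.80 and CEP85, a centrosome protein, one of -0.81.

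GPR84 encodes a receptor for medium-chain fatty acids that is best known from activated macrophages and microglia. Its levels were 6.12, 7.12 and 6.34 in co-culture and 4.59, 4.97 and 5.27 in monoculture, where it was above background on 2 of the 3 arrays. The co-culture arrays all lay above the monoculture arrays. The difference of 1.59 (SE 0.27, n = 3 per group, limma adjusted p = 0.151) corresponds to a 3.01-fold higher signal. Leaving out each array in turn gave 1.29 to 1.79. In U373 cells the gene was at background, with a difference of 0.19.

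MSC, which encodes the basic helix-loop-helix repressor musculin, had the smallest p. It read 7.20, 7.32 and 7.59 in co-culture against 6.44, 6.26 and 6.43 in monoculture, 1.99-fold higher (log2 difference 0.99, SE 0.16, limma adjusted p = 0.151). The arrays of each group lay close together and the groups were apart by more than either spread. MSC was at background in U373 cells, in which the difference was -0.29.

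The other higher genes with the smallest p had varied roles. RRAD, a Ras-related GTPase that restrains glucose uptake and calcium channels, read 9.37, 9.48 and 9.44 against 8.82, 8.57 and 8.54 (log2 difference 0.79, SE 0.16), alike at its 2 probes (0.77 and 0.81). GABARAPL1, an autophagosome protein of the ATG8 family, read 8.11, 8.48 and 8.05 against 7.33, 7.48 and 7.37 (difference 0.82, SE 0.18). GJA1, the gap junction protein connexin 43, read 10.39, 10.87 and 10.42 against 9.45, 9.87 and 9.96 (difference 0.80, SE 0.19). In these 3 genes the groups did not overlap. The keratin-associated gene KRTAP1-5 was 1.71-fold higher, the RNA-binding protein gene STAU2 1.61-fold, the importin gene KPNA5 1.72-fold and ANAPC16, a subunit of the anaphase-promoting complex, 1.52-fold, and in each the groups were apart as well. The adjusted p of these 7 genes was 0.505 to 0.673.

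RGS2, a regulator that shortens G protein signaling, was among the 5 genes with a difference above 1, the others being GPR84, PTGS2, IL1A and BGN. It stood at 7.64, 7.85 and 6.70 in co-culture and at 6.30, 6.35 and 6.38 in monoculture (log2 difference 1.05, SE 0.30, limma adjusted p = 0.673). Replicate 3 was the lowest of the co-culture arrays yet above all monoculture arrays. FGD3 alone had a difference below -1.

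FGD3, an exchange factor for the small GTPase CDC42, was 2.46-fold lower in co-culture. Its levels were 5.78, 5.41 and 5.76 in co-culture and 6.92, 6.84 and 7.08 in monoculture (log2 difference -1.30, SE 0.26, limma adjusted p = 0.505). The spread within each group was smaller than the difference, which was -1.36 to -1.18 when arrays were left out in turn. U373 cells did not express FGD3 above background in monoculture. The SE also draws on the U373 arrays, where its SD was 0.61 in co-culture and 0.42 in monoculture, against 0.20 and 0.12 in U87MG.

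The other lower genes with the smallest p were mostly dim. DSCC1, a subunit of the alternative clamp loader that acts in sister chromatid cohesion, read 4.97, 4.62 and 4.54 against 5.45, 5.35 and 5.50 and was above background on 2 of the 3 co-culture arrays. URB2, a factor of ribosome biogenesis, read 5.83, 6.16 and 5.85 against 6.78, 6.57 and 6.46. The growth factor gene FGF18 was above background on 1 co-culture array and on 3 monoculture arrays, with a difference of -0.60 (SE 0.17). ENDOU, an RNA endonuclease (difference -0.76), ACRV1, a sperm acrosome protein (-0.47), and CHML, a Rab escort protein (-0.51), lay as near to background. Brighter genes of this group were CDC20, the activator of the anaphase-promoting complex, at 11.21, 11.19 and 11.11 against 11.90, 11.66 and 11.54, and NOPCHAP1, at 7.21, 7.05 and 7.28 against 7.64, 7.67 and 7.58. In KHSRP, an RNA-binding protein that promotes decay of inflammatory mRNAs, the groups overlapped, at 8.79, 9.06 and 9.42 against 10.05, 9.82 and 9.34.

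**Figure D2:**
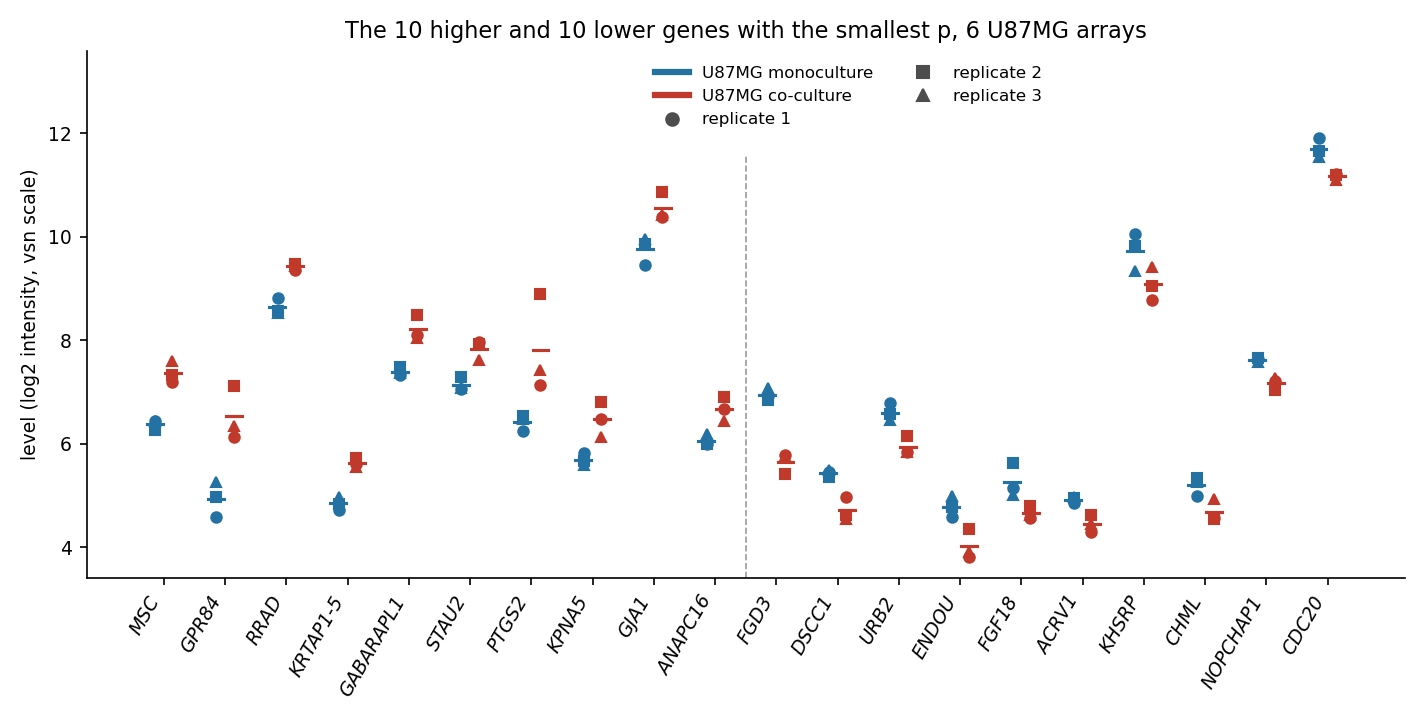
Levels (vertical axis, log2 intensity) of the 10 higher and 10 lower genes with the smallest p, left and right of the dashed line, on the 3 monoculture (blue) and 3 co-culture (red) arrays of U87MG, with a line at each mean and a marker for each replicate number. The groups are apart in every gene but KHSRP, and PTGS2 and GPR84 are highest on co-culture replicate 2.

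Over genes above background, inflammatory cytokines and chemokines had the highest median difference of the lists. Without the background filter their median was much lower, as given under the dependence on processing. The list held 30 genes, of which 11 were above background. In 5 of these 11 (45.5%) the co-culture arrays lay above all monoculture arrays, against 10.8% of all genes, and in 0 below. After quantile normalization 3 of the 11 were higher without overlap and 0 lower, against 7.24% and 8.18% of all genes. The median difference of the 11 genes was 0.494, against 0.070 for all genes, and 0.473 after quantile normalization. It was 0.068, 0.818 and 0.604 in the same-numbered pairs, 0.673 without co-culture replicate 1 and 0.392 without replicate 2. No gene of the list passed the adjusted test.

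PTGS2 encodes cyclooxygenase-2, the inducible enzyme of prostaglandin synthesis. It read 7.14, 8.89 and 7.44 in co-culture and 6.25, 6.53 and 6.47 in monoculture, a difference of 1.40 (SE 0.31, limma adjusted p = 0.517) or 2.64-fold, with 1.46 and 1.34 at its 2 probes. Co-culture replicate 2 was the highest by far, and without it the difference was 0.87. IL1A, interleukin 1 alpha, read 7.88, 8.71 and 8.40 against 6.67, 7.12 and 7.5 (difference 1.23, SE 0.54, adjusted p = 0.7), 2.35-fold higher with no overlap. IL1B, interleukin 1 beta, was abundant in both groups, at 12.56, 13.12 and 13.07 against 12.49, 12.31 and 12.47 (difference 0.49, SE 0.35). Replicate 1 of the co-culture hardly exceeded the monoculture there.

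The chemokines of neutrophils were also higher on each co-culture array. CXCL8, interleukin 8, read 10.49, 11.82 and 11.10 against 10.13, 10.45 and 10.01, a difference of 0.94 (SE 0.40, limma adjusted p = 0.7) or 1.92-fold, and its 2 probes gave 0.92 and 0.96. CXCL2 read 6.62, 7.51 and 7.63 against 6.02, 6.61 and 6.57 (difference 0.85, SE 0.37, adjusted p = 0.7). In both genes replicate 1 was the lowest co-culture array. IL6 read 7.57, 9.02 and 8.98 against 7.49, 7.89 and 7.84 and overlapped between the groups, as did CSF3, the granulocyte growth factor, at 6.90, 7.47 and 7.59 against 7.11, 6.70 and 6.99. LIF, IL11, CSF1 and IL18 overlapped too, with differences of -0.03 to 0.28.

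The NF-kB machinery itself was read as a list too. Of 22 genes for subunits and feedback inhibitors above background, 1 was higher without overlap (4.55%, against 10.8% of all genes) and 0 lower (against 3.80%), with a median of 0.053, which became -0.029 after quantile normalization. The immediate early genes had a median of -0.003, with 0 of 28 genes apart in either direction. For the interferon-stimulated genes the median was 0.108, and 0.002 without co-culture replicate 2. Without overlap 6 of 32 were higher (18.8%, against 10.8% of all genes) and 0 lower. After quantile normalization 5 were higher and 1 lower, against 7.24% and 8.18% of all genes. Of the interferon-stimulated genes, IFITM3, which blocks virus entry, read 9.98, 10.19 and 9.82 against 9.76, 9.36 and 9.62. The RNA helicase DDX60 was 1.42-fold higher.

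Promoters of the genes that led the inflammatory list were read for a short form of the NF-kB motif, because NF-kB drives these genes in many cells. The motif was GGNNNTTCC on either strand, where matches of both strands can overlap, and 20.1% of 27305 RefSeq promoters of the same 300 bases (250 before the start and 50 after it) held it. Of the 11 genes of the list 7 had a promoter in the table and 3 of these, CXCL8, CXCL2 and IL6, held the motif. IL6 overlapped between the groups, and the windows of IL1A and IL1B, both higher without overlap, held 0 matches. The sequences are from RefSeq (GRCh38.p14), with the motif in capitals: CXCL8 at chr4:73740319-73740618 (plus strand), CXCL2 at chr4:74099146-74099445 (minus strand) and PTGS2 at chr1:186680374-186680673 (minus strand), all written along the gene.
CXCL8: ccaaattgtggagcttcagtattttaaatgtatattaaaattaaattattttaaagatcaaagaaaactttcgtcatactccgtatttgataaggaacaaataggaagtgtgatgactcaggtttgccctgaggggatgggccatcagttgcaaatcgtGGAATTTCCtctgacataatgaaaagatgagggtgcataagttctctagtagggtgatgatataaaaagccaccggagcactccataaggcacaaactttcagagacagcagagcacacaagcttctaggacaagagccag
CXCL2: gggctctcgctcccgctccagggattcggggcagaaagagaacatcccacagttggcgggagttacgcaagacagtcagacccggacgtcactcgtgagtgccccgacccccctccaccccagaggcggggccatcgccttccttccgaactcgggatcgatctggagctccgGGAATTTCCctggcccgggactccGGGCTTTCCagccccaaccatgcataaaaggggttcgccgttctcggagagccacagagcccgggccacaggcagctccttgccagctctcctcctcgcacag
PTGS2: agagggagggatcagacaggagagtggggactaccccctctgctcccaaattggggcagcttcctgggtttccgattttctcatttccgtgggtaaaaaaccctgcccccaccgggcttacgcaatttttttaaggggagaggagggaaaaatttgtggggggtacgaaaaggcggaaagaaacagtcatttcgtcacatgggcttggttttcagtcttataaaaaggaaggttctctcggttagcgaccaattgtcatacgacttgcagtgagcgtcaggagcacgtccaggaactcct
CXCL8 held 1 match, which began at base -91 from the start, and CXCL2 held 2, at -77 and -53. In the PTGS2 window these letters did not occur. Other forms of the NF-kB motif were not searched, so the absence of these letters does not show that a window lacks such a site. A match describes the letters and does not show a bound site.

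A further question was whether U87MG and U373 cells differed in their co-culture difference. In U373 cells 12 of 10644 genes (0.113%) passed the adjusted test, and 7 of them were above background in U87MG cells: CXCL8, CXCL2, IL1B, COL13A1, FLVCR1, RELB and TGFA. None of these passed in U87MG. RELB, an NF-kB subunit, had a difference of 0.06 in U87MG and 1.31 in U373, and TGFA, a ligand of the EGF receptor, 0.04 and 1.28. The adjusted test of the difference between the lines was passed by 1 of 10644 genes (0.00939%), CXCL8. Its co-culture difference was 0.94 in U87MG and 5.01 in U373, where it went from 7.66, 7.18 and 8.10 to 12.22, 13.77 and 11.97. The difference between the lines was -4.07 (SE 0.57, limma adjusted p = 0.0361). It was not called without U87MG co-culture replicate 1 or 3 or U87MG monoculture replicate 1, 2 or 3 (adjusted p = 0.112 to 0.266), although the value stayed between -4.16 and -3.75. With the replicate number as a block 2 genes passed, CXCL8 at 0.0238 and CCL2 at 0.0253.

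CCL2, the chief monocyte chemokine, was near background in U87MG cells and is not counted among the 9857 genes. It read 4.86, 4.72 and 4.4 in co-culture, above background on 2 arrays, and 4.12, 3.95 and 3.86 in monoculture, above it on 0. The arrays did not overlap. In U373 monoculture CCL2 stood at 9.55, so the part of U373 RNA in the reading of co-culture replicate 1 was not tested. The difference of 0.69 (SE 0.18, limma adjusted p = 0.673) was 0.59 without that array.

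**Figure D3:**
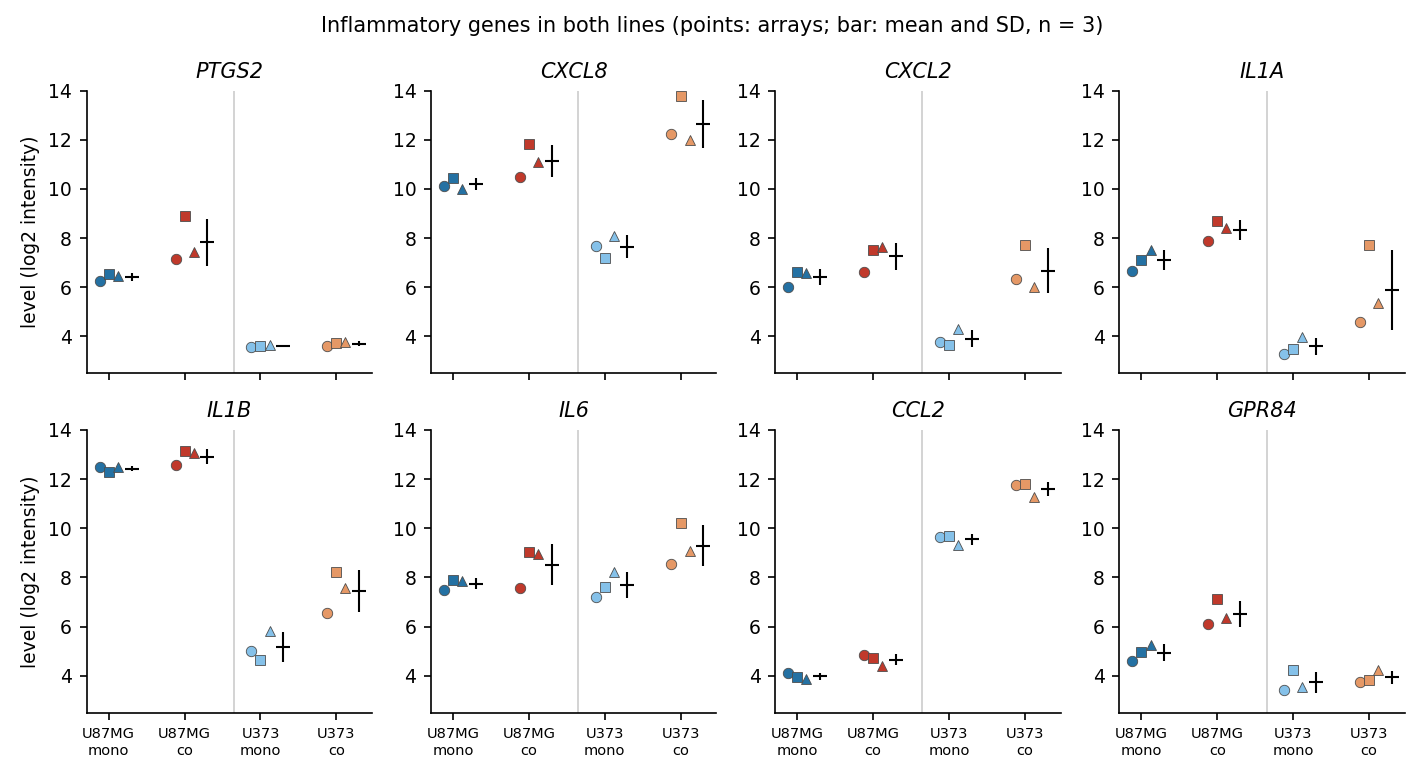
Levels (vertical axis, log2 intensity) of 8 genes on all 12 arrays, in U87MG and U373 monoculture and co-culture (points are arrays, markers are replicate numbers, black bars are mean and SD, n = 3). CXCL8 goes from a mean of 10.20 to 11.14 in U87MG and from 7.65 to 12.65 in U373, and PTGS2 and GPR84 are at background in U373.

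The next list held genes of the hypoxia response and glycolysis. Of 42 genes 38 were above background, 11 were higher without overlap (28.9%, against 10.8% of all genes), 1 was lower and 33 had a higher mean. After quantile normalization 7 were higher and 1 lower without overlap, against 7.24% and 8.18% of all genes. The median difference was 0.252, or 0.177 after quantile normalization. In the same-numbered pairs it was 0.260, 0.269 and 0.103. Without co-culture replicate 1 or 2 the median was 0.214 and 0.211.

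KDM3A, a histone demethylase induced by low oxygen, read 6.77, 6.46 and 6.22 in co-culture and 5.68, 5.18 and 6.14 in monoculture (difference 0.81, SE 0.23, limma adjusted p = 0.673). BNIP3L, a receptor for removal of mitochondria, read 9.07, 8.97 and 8.71 against 8.17, 7.95 and 8.6, with differences of 0.50 and 0.86 at its 2 probes. SLC2A1, the glucose transporter GLUT1, read 10.93, 10.61 and 10.56 against 10.15, 10.20 and 10.32 (difference 0.48, SE 0.16, adjusted p = 0.683). In all 3 genes replicate 3 of the monoculture came closest to the co-culture. HK2, which phosphorylates glucose, was 1.28-fold higher and the mitophagy gene BNIP3 1.22-fold. VEGFA, the angiogenic factor, went the other way, at 6.15, 6.59 and 6.63 against 6.78, 6.83 and 6.70, averaged over 3 probes of which 1 was at background. Further glycolytic enzymes higher without overlap were PFKL, ENO2 and PGK1, by 0.39, 0.35 and 0.21, while GAPDH had a difference of -0.02, LDHA -0.01, PGAM1 0.02, ALDOA 0.05 and ENO1 -0.09, with SEs of 0.12 to 0.22 in these last 5 genes.

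Metallothioneins and zinc transporters formed the list with the largest share of genes apart. Of 14 genes 12 were above background, and 6 of these (50%, against 10.8% of all genes) were higher without overlap and 0 lower. The median difference was 0.341, 0.271 after quantile normalization (5 of 12 higher without overlap, against 7.24% of all genes) and 0.302, 0.479 and 0.191 in the same-numbered pairs. MT1X read 13.47, 13.61 and 13.64 against 13.15, 13.13 and 13.12 (difference 0.44, SE 0.13, limma adjusted p = 0.673). MT1F read 11.75, 11.91 and 11.48 against 11.38, 11.03 and 11.29 (difference 0.48, SE 0.19), and MT1M 6.81, 7.13 and 6.72 against 6.60, 6.28 and 6.48. MT2A, the most abundant of them, overlapped between the groups, at 14.49, 14.28 and 14.80 against 14.65, 14.42 and 14.61. The transcription factor MTF1 had a difference of 0.33, the zinc exporter SLC30A1 0.26 and the importer SLC39A14 0.48, all without overlap. In U373 cells MT1X and MT1F had differences of -0.40 and -0.56; the difference between the lines did not pass (adjusted p = 0.322 and 0.480). Metallothionein transcripts are near-identical, so their probes may read each other's RNA.

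The promoters of MT1X and MT2A are shown because MT1X was apart between the groups and MT2A was not, and both windows hold the metal response motif. The letters TGCACNC or TGCGCNC on either strand are in capitals, matches on opposite strands can overlap, and 29.3% of the 27305 promoters held at least 1 match. Of the 12 genes 7 had a promoter in the table and 4 of these held a match, MT1H, MT1X, MT2A and SLC30A1. MT1X lies at chr16:56682220-56682519 and MT2A at chr16:56608334-56608633 (RefSeq, GRCh38.p14, both plus strand).
MT1X: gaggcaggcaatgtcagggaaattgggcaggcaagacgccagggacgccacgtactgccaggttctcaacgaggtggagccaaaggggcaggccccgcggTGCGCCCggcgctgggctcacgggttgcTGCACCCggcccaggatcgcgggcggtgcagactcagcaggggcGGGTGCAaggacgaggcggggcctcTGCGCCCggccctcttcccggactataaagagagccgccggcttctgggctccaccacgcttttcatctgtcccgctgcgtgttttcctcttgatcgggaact
MT2A: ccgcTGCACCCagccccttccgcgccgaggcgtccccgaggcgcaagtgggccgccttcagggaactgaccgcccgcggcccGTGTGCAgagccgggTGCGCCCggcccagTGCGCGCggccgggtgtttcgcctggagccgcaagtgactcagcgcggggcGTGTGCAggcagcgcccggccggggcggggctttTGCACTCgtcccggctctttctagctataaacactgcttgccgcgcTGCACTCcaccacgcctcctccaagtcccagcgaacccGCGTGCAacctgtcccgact
MT1X held 4 matches, at bases -150, -122, -78 and -53 from the start, and MT2A held 8, the most of the 7 promoters. Neither number shows a bound site.

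**Figure D4:**
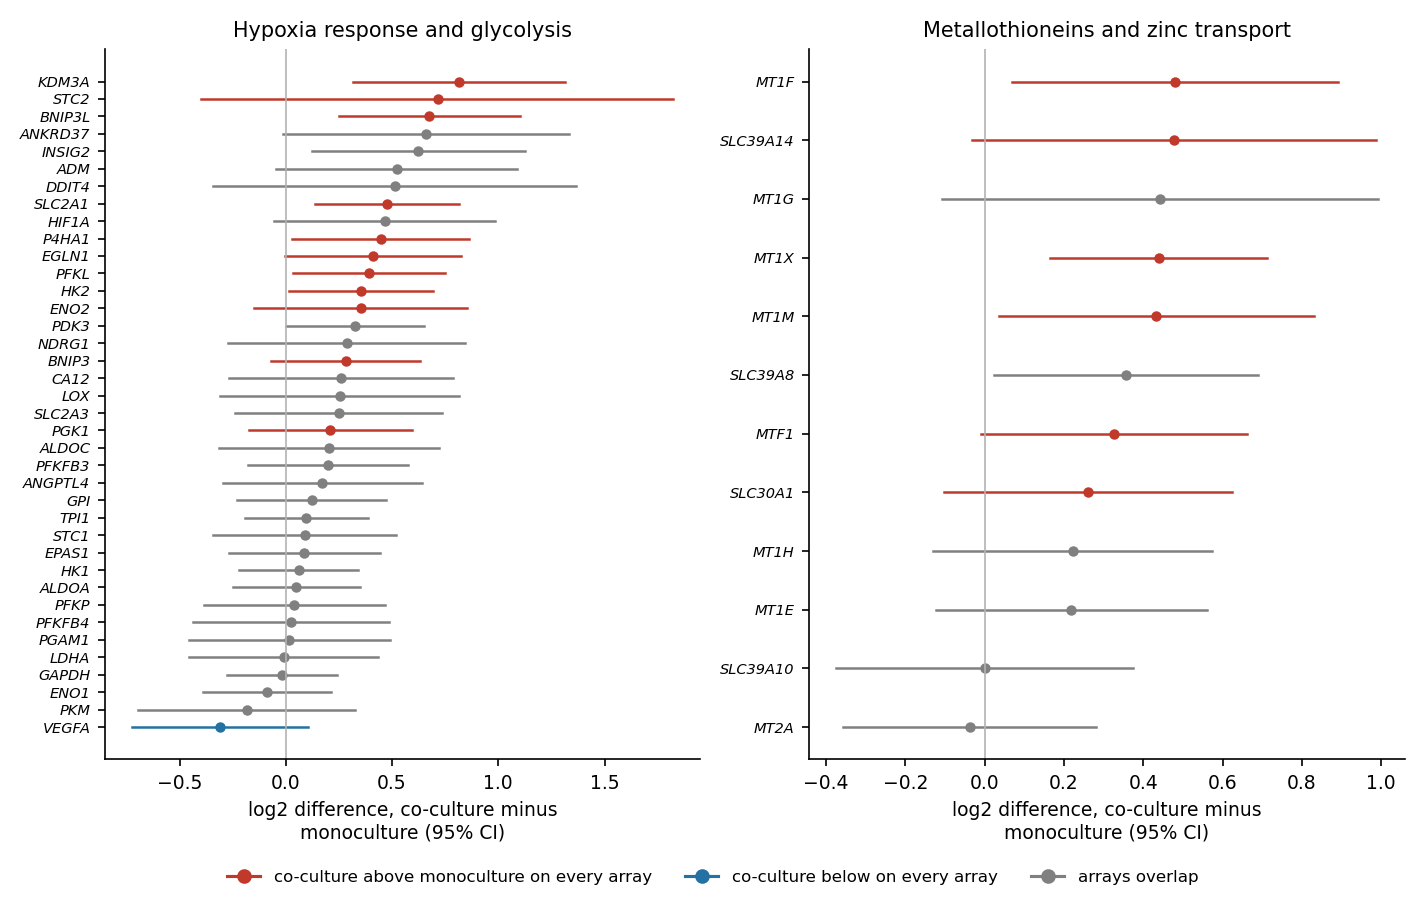
Log2 difference between U87MG co-culture and monoculture (horizontal axis) with its 95% confidence interval for the 38 hypoxia and glycolysis genes and the 12 metallothionein and zinc transport genes above background. Red genes were higher on every co-culture array than on every monoculture array (11 and 6), and VEGFA, in blue, was lower.

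The extracellular matrix was read as several lists. Integrins and basement membrane genes had a median of 0.015, below the 0.070 of all genes, and collagens one above it. Of 17 collagens above background 15 had a higher mean, 2 were higher without overlap (11.8%, against 10.8% of all genes) and 0 lower, with a median of 0.215. After quantile normalization 2 were higher and 1 lower, against 7.24% and 8.18% of all genes, and the median was 0.129. It was 0.136 without co-culture replicate 1 and 0.125 without monoculture replicate 3. COL6A1 read 10.59, 10.67 and 10.47 against 10.41, 10.13 and 9.92. Of 17 collagen processing enzymes 4 were higher without overlap (23.5%, against 10.8% of all genes) and 0 lower, with a median of 0.123, which was 0.065 after quantile normalization and 0.050 without monoculture replicate 3. They were led by BMP1, which cleaves procollagen, at 7.56, 7.70 and 7.26 against 7.18, 7.01 and 6.81, the lysyl hydroxylase PLOD2, 1.54-fold higher, and the lysyl oxidase LOXL3, 1.29-fold. The 3 probes of PLOD2 differed, at 0.30, 0.59 and 0.98, with the smallest difference at the brightest probe. COL1A1 and COL1A2, the chains of type I collagen, overlapped between the U87MG groups, with differences of 0.23 and 0.37.

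Proteases form the list that the study compiled. Of the 667 distinct genes read from that list here 306 were above background in U87MG cells. In these, 34 were higher without overlap (11.1%, against 10.8% of all genes) and 12 lower, and the median difference was 0.079, against 0.070. By class, 14 of 99 cysteine, 10 of 89 metallo, 10 of 88 serine, 0 of 22 threonine and 0 of 8 aspartic proteases were higher without overlap. The share over all proteases was thus near that of all genes. CTSK, cathepsin K, a collagen-degrading cysteine protease, read 9.88, 10.39 and 9.92 against 9.99, 9.82 and 9.68 and overlapped. The confidence interval of its difference of 0.23 ran from -0.21 to 0.68. CPE, a carboxypeptidase of neuropeptide processing, overlapped too, with a difference of 0.44.

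Single proteases were apart. FAP, a serine protease of the cell surface, read 6.44, 6.85 and 6.77 in co-culture and 5.66, 6.10 and 5.58 in monoculture, 1.87-fold higher (log2 difference 0.90, SE 0.33, limma adjusted p = 0.683). In the list of matrix metalloproteinases, ADAMs and TIMPs 5 of 22 were higher without overlap (22.7%, against 10.8% of all genes) and 0 lower. After quantile normalization only 2 of the 22 were higher and 1 lower, against 7.24% and 8.18% of all genes. The median of 0.156 was 0.084 after quantile normalization, 0.079 and 0.089 without co-culture replicate 1 and 2, and 0.100 without monoculture replicate 3. MMP14, the membrane-bound collagenase that activates MMP2, read 7.21, 7.31 and 7.39 against 7.02, 6.92 and 6.72, and MMP2, a gelatinase, 9.42, 9.48 and 9.20 against 9.20, 8.86 and 8.83. Both differences were 0.41. ADAMTS5, an aggrecanase, was 1.74-fold higher and most so on co-culture replicate 2, at 7.01 against 5.66 and 6.02 on the other co-culture arrays. Its difference of 0.80 ran from 0.41 to 1.09 with an array left out.

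Of 12 cysteine cathepsins and inhibitors 2 were higher without overlap (16.7%, against 10.8% of all genes) and 0 lower, with a median of 0.234 that was 0.134 without co-culture replicate 2. CTSS, cathepsin S, read 5.18, 5.34 and 5.32 against 4.61, 4.79 and 4.65, above background on all co-culture arrays and 1 monoculture array. CTSF was 1.34-fold higher. PI3, an elastase inhibitor, overlapped, at 9.52, 11.04 and 10.59 against 9.71, 9.73 and 9.42. Lysosomal enzymes and membrane proteins had 7 of 30 higher without overlap (23.3%, against 10.8% of all genes) and 0 lower (against 3.80%). After quantile normalization 5 of these 30 were higher and 0 lower, against 7.24% and 8.18% of all genes. Their median of 0.159 was -0.086, 0.334 and 0.202 in the pairs and 0.071 without co-culture replicate 2. The hydrolases IDUA, PPT1 and ARSA led them, at 1.38-fold, 1.35-fold and 1.38-fold.

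Of the serpins, plasminogen system and tissue factor list 2 of 17 were higher without overlap (11.8%, against 10.8% of all genes) and 0 lower, with a median of 0.072, among them F3, tissue factor, the starter of coagulation. F3 read 5.40, 5.28 and 5.67 against 4.63, 4.61 and 4.89 (difference 0.74, SE 0.20, limma adjusted p = 0.673), with 0.52 and 0.96 at its 2 probes. THBS1, thrombospondin 1, read 6.97, 6.51 and 6.17 against 5.94, 6.0 and 5.67, but stood at 12.49 in U373 monoculture and was highest on co-culture replicate 1. Of the IGF binding proteins IGFBP1 was 1.5-fold higher without overlap, and IGFBP3 read 8.81, 9.91 and 8.25 against 7.98, 8.64 and 8.19, with overlap. Of 7 IGF binding proteins 1 was thus higher without overlap (14.3%, against 10.8% of all genes) and 0 lower. Their median of 0.270 was 0.277, 0.597 and 0.030 in the same-numbered pairs. Of 11 complement genes 2 were higher without overlap (18.2%, against 10.8% of all genes) and 0 lower. Their median of 0.265 was 0.115, 0.375 and 0.102 in the pairs. The complement protease C1S was 1.48-fold higher without overlap, with 0.36 and 0.78 at its 2 probes, the former above background on 0 monoculture arrays.

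Sterol and lipid synthesis had 7 of 28 genes higher without overlap (25%, against 10.8% of all genes) and 2 lower (against 3.80%). After quantile normalization 3 were higher and 6 lower, against 7.24% and 8.18% of all genes. The median of 0.204 was 0.126 after quantile normalization, 0.125 and 0.097 without co-culture replicate 1 and 2, and 0.091 without monoculture replicate 3. IDI1, of the isoprenoid pathway, read 6.95, 6.86 and 6.44 against 6.01, 6.39 and 6.37. CYP51A1, a sterol demethylase, read 6.64, 5.93 and 6.04 against 5.2, 5.75 and 5.90, and the desaturase FADS1 10.22, 10.54 and 10.34 against 10.09, 9.94 and 9.94. In IDI1 and CYP51A1 the first pair of arrays was furthest apart and in FADS1 the second.

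Genes of proliferation and ribosomes had medians below that of all genes under both scalings. Of 57 cell cycle and DNA replication genes 2 were higher without overlap (3.51%, against 10.8% of all genes) and 5 lower (against 3.80%), with a median of -0.022, against 0.070. After quantile normalization 1 was higher and 12 lower, where 7.24% and 8.18% of all genes were, with a median of -0.098, against -0.001. Without co-culture replicate 1 or monoculture replicate 2 the median was -0.094, and without co-culture replicate 3 it was 0.016. CDK2 read 9.26, 9.12 and 9.10 against 9.52, 9.5 and 9.42. Of 44 ribosomal proteins 0 were higher and 2 lower without overlap (median -0.073), and 0 and 11 after quantile normalization (median -0.101), against the same shares of all genes. The median was -0.020 without co-culture replicate 2.

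Of 14 genes of antigen presentation on MHC class II 9 had a lower mean in co-culture. Without overlap 2 were lower, CD74 and CIITA, and 1 was higher, CTSS, where 3.80% and 10.8% of all genes were. The median was -0.095, and -0.223 without co-culture replicate 1. CD74, the invariant chain, read 10.25, 10.27 and 10.25 against 10.70, 10.40 and 10.40, with -0.07, -0.45 and -0.21 at its 3 probes. CIITA, the master regulator of these genes, read 5.55, 5.82 and 5.09 against 6.11, 5.90 and 5.90. In MHC class I presentation 10 of 16 genes had a higher mean and 6 a lower one, with a median of 0.057. Without overlap 1 of them was higher (6.25%, against 10.8% of all genes) and 1 lower (against 3.80%).

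**Figure D5:**
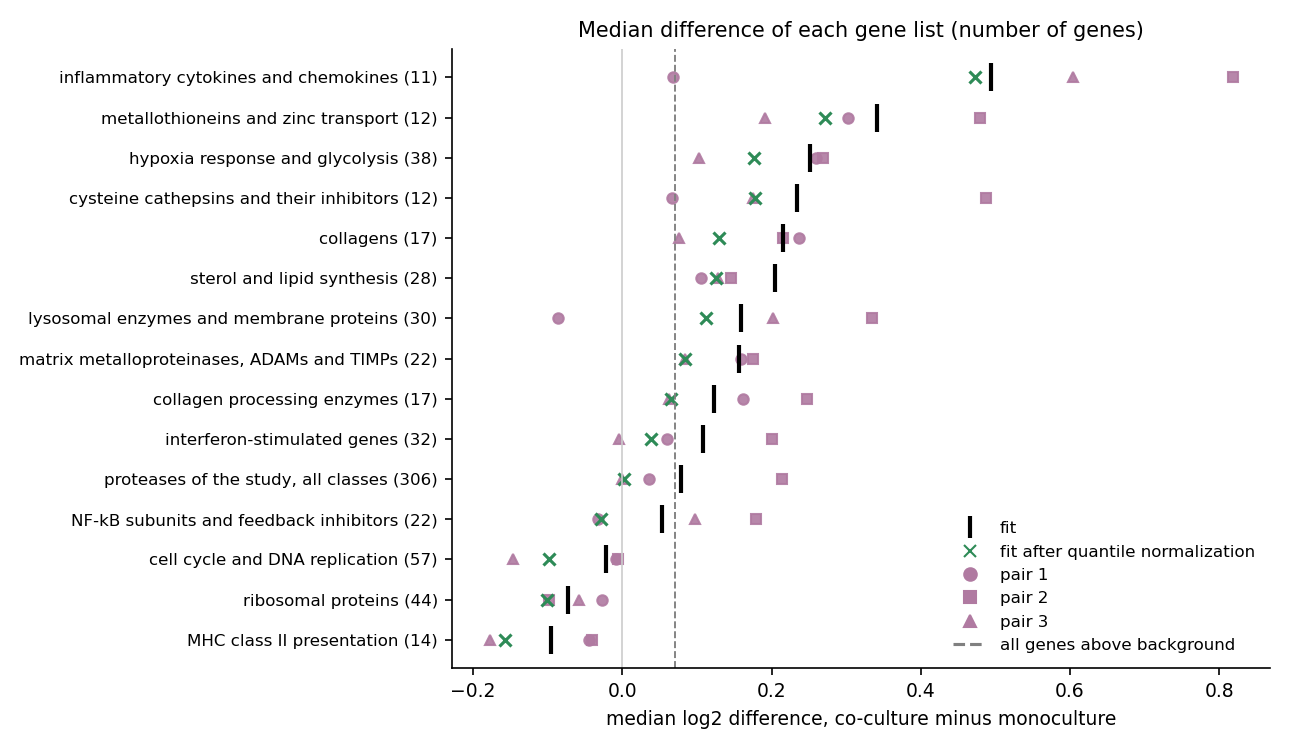
Median log2 difference (horizontal axis) of 15 gene lists, with the number of genes above background in brackets, from the fit (black bar), from the fit after quantile normalization (green cross) and from each same-numbered pair of arrays (purple markers). Inflammatory cytokines lie at 0.494 and the median of all genes (dashed line) at 0.070.

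The remaining lists had medians from -0.029 to 0.205, against 0.070 for all genes. Prostaglandin and leukotriene synthesis, which holds PTGS2, had a median of 0.205 over 9 genes, with 1 higher without overlap (11.1%, against 10.8% of all genes). Those from -0.029 to 0.054 were YAP targets, integrins with basement membrane, proteasome subunits, growth factor ligands, the ATF4 and ER stress response, astrocyte and neural stem genes, heat shock proteins and TXNIP with its relatives. Iron and heme handling (0.073), the NRF2 targets (0.097), TGF-beta ligands and targets (0.108), respiratory chain subunits (0.110), p53 targets (0.112), contractile and mesenchymal genes (0.114), growth factor receptors (0.127) and matrix glycoproteins (0.148) lay above it. Among these genes SLC1A3, the astrocyte marker that U87MG cells do express, read 7.89, 8.22 and 7.88 against 7.44, 7.56 and 7.42 (difference 0.52, SE 0.14, limma adjusted p = 0.673).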

How the data were processed

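RNA of U87MG and U373 cells was measured on 12 arrays. The authors deposited variance-stabilized intensities, read here as natural log values: the brightest probes stood at 9.9 to 10.27, at most 28739 as a natural log and only 1231 as log2. Values were converted to log2. If they were log2 already, all differences would be 0.69 times those given. The 24 columns of the non-normalized table carry no sample name and were not used. Of 48803 probes 27578 had a single gene (symbols from RefSeq, GRCh38.p14), and probes of a gene were averaged. A gene was tested where a probe exceeded the mode of the array plus 3 SD on at least 3 arrays.

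Differences were tested with limma 3.58.1 in R 4.3.3 on 4 group means over 12 arrays (14.9 degrees of freedom, two-sided, Benjamini-Hochberg over 10644 genes, threshold 0.05), with code tested on simulated data. The p-values measure the spread among the 3 labelled biological replicates, pooled over the 4 groups, so the U373 arrays enter it too. The median within-group SD was 0.177 in U87MG and 0.214 in U373. Same-numbered U87MG arrays deviated together (r = 0.126, 0.176 and 0.148), so a replicate block was also fitted. Named genes were the 10 with the smallest p in each direction, up to 3 per list, those the study names and those called in U373; further ones were singled out after their values were seen. Members and lists were chosen with earlier results of these data known, and no list was tested. Python 3.11.15 with pandas 2.3.3 and matplotlib 3.10.9 was used.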

Additional observations from a re-analysis of the deposited data

Results flagged for a closer look

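The co-culture difference of CXCL8 was 0.94 in U87MG and 5.01 in U373, and the test of the difference between the lines gave -4.07 (SE 0.57, limma adjusted p = 0.0361, higher on all 3 co-culture arrays in each line). CXCL8 was singled out because this test between the lines passed for it. In U87MG monoculture it already stood at 10.13, 10.45 and 10.01, against 7.66, 7.18 and 8.10 in U373 monoculture.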

How the results depend on the processing

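The count of genes called between U87MG co-culture and monoculture was 0 in the fit of all 12 arrays and with each U87MG array left out. It was 3 in a fit of the 6 U87MG arrays, 4 with the replicate block in that fit, 2 with array weights and 7 by rank product, and 0 with the replicate block over 12 arrays and under the other filters, limits, probe choice, variance prior and quantile normalization. For the difference between the lines it was 1, 2 with the replicate block, 0 with a trended variance or no filter, and 0 to 1 with an array left out. The cause was not tested. Genes not overlapping, an alternative chosen after seeing the data, were 714 higher and 806 lower after quantile normalization, 1623 and 689 without co-culture replicate 1, and 1271 and 697 without co-culture replicate 2. Fewer arrays overlap less by construction. Without the filter, where the median of all genes was 0.046, that of inflammatory cytokines was 0.092 and that of metalloproteinases 0.100. After quantile normalization the latter was 0.084 and that of sterol synthesis 0.126. With an array left out, the median ran from 0.125 to 0.252 for collagens, 0.079 to 0.198 for metalloproteinases, 0.091 to 0.270 for sterol synthesis, 0.002 to 0.172 for interferon-stimulated genes, -0.122 to -0.020 for ribosomal proteins and -0.223 to -0.020 for MHC class II genes. None of the 70 named genes was called in the fit of all 12 arrays. Of their 1251 values under the alternatives 1234 kept direction and stayed uncalled, 14 newly passed and 3 changed sign. All 3 were of MT2A, which read 0.029 after quantile normalization and -0.176 to 0.081 with an array left out. The number of arrays and the flat scale near background limit the differences of dim genes.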
